A study of Mus musculus with 2 samples.

Results

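The cells described here are Retnlg-high mature neutrophils of the mouse lung, 1497 of the 26650 barcodes kept from 2 single-cell RNA libraries. The cells were chosen by measured values of 16 genes. A barcode entered where S100a8 and S100a9 held at least 2% of its unique molecular identifiers (UMIs, each standing for 1 captured RNA molecule), Csf3r had at least 1 UMI, and Camp, Ngp and Ltf together held under 0.1%. It also had no UMI of Cdh5, Cd79a, Cd3e or C1qa, which mark endothelial, B, T and macrophage cells. These steps left 4354 mature neutrophils. The last step kept those whose UMI sum of Retnlg, Mmp8 and Prok2 was at least 1 and at least as large as the sum of Ccrl2, Ptgs2 and Marcksl1, which gave 833 cells in one library and 664 in the other. The 2857 mature neutrophils that failed this step serve as the comparison.

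Both libraries came from lungs of BALB/c mice that carried 4T1 tumours, a mouse mammary carcinoma line placed in the mammary fat pad. They were collected on day 14. One library was from mice given IgG antibody and the other from mice given the S100a4-11 antibody, with 1 library per group, and the number of animals behind each is not given in the labels. The protocol text speaks of tumour tissue, while titles, source and tissue labels say lung. With 1 library per group no difference between the groups can be tested: antibody, animals and library preparation cannot be told apart. Where a pair of values is given, the IgG library comes first and the S100A4-11 library second. All intervals below are exact 95% intervals and cover counting error only.

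Neutrophils leave the bone marrow after making their granule proteins in sequence, and transcripts of the late granules, such as Mmp8 and Retnlg, fade as the cells spend time outside the marrow. Stimulated neutrophils in tissue switch on genes downstream of the transcription factor NF-kB, among them Il1b, Cxcl2, Nfkbia and Tnfaip3. In mice with 4T1 tumours, neutrophils expand and gather in the lung, a site to which this carcinoma spreads.

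Because these genes chose the cells, their levels are a description and no support. Levels are given as CPM, UMIs per 1000000 UMIs summed over the cells of a group in a library. Retnlg, a secreted resistin-like protein, was at 9761 CPM in the IgG library's Retnlg-high cells and at 9962 CPM in those of the S100A4-11 library, against 977 and 1095 CPM in the other mature neutrophils. Mmp8, a collagenase of the neutrophil granules, was at 698 and 760 CPM, and Prok2, a secreted chemotactic peptide, at 648 and 602 CPM. A Retnlg UMI was found in 99.5% of the Retnlg-high cells of each library. Among B cells, which should lack it, 4.76% and 3.32% in the IgG and S100A4-11 libraries held one, at median depths of 2954 and 2883.5 UMIs against 5539 and 5287 in the Retnlg-high cells.

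**Figure D1:**
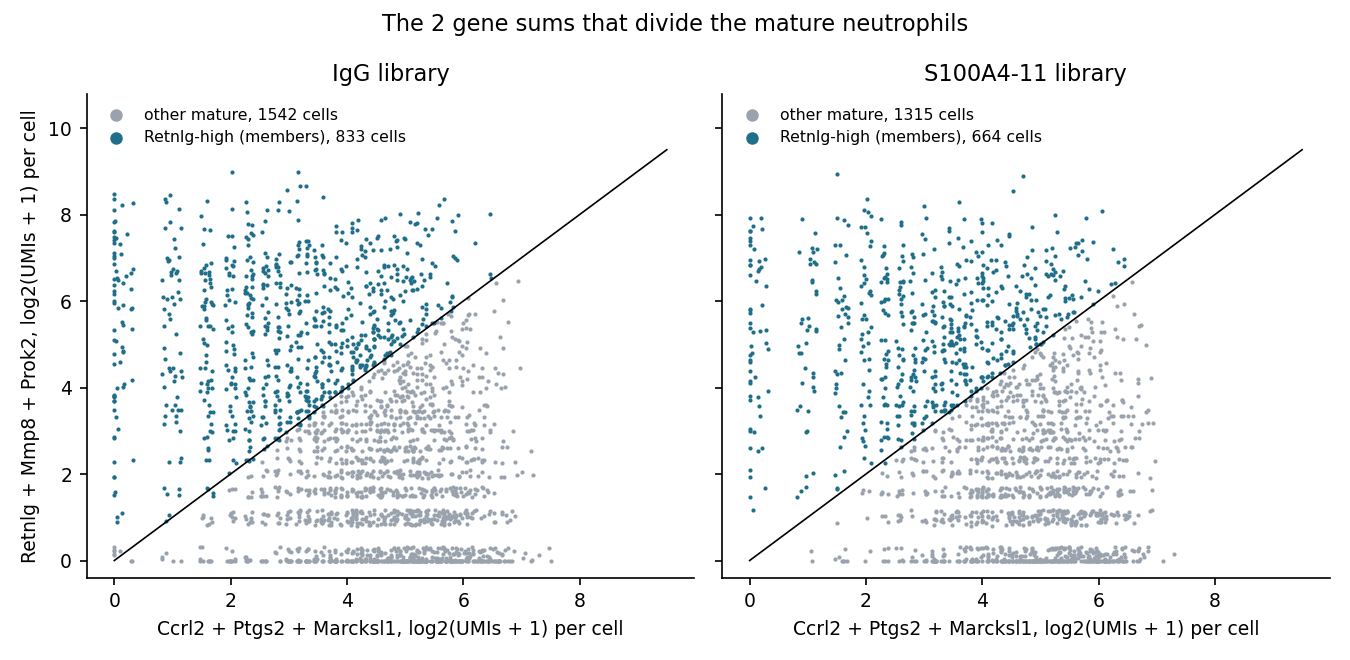
Each point is 1 mature neutrophil, with a small random shift to part equal values; the axes give log2(UMIs + 1) of the 2 gene sums that divide the cells, in the IgG (left) and S100A4-11 (right) library, and the line marks equal sums. The 833 and 664 Retnlg-high cells lie on or above the line and pass into the 1542 and 1315 other cells without a gap.

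These cells were proposed under the name "resting", yet they held abundant RNA of an inflammatory cytokine that the rule did not use. Il1b, interleukin-1 beta, was at 14032 and 16615 CPM and had a UMI in 99.6% and 100% of the cells. Among B cells, 24.2% and 20.3% held an Il1b UMI. Il1b and Ptgs2 each have an annotated antisense gene, and whether the counting used strand is not given in the sources used here. The cells are called here by the rule's leading gene.

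The border of the group is a cut through a continuous range. Among IgG cells 35 cells lay exactly on it, with a median of 7 UMIs in each of the sums, and 33 cells missed it by 1 UMI, with medians of 3 and 4. In the S100A4-11 library 19 cells lay on it, with medians of 11 and 11, and 22 cells missed it by 1 UMI, with medians of 4.5 and 5.5. Cells with a margin of 4 UMIs or fewer made up 17.6% and 14.9% of the group.

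Depth differed between the groups of cells more than between the libraries. The Retnlg-high cells held 5193304 and 3743942 UMIs in all, with a median of 1341 and 1277 genes per cell. The other mature neutrophils were shallower, at medians of 3638 and 3472 UMIs, and the granulocytes with Camp, Ngp and Ltf above the limit (212 and 168 cells) were deeper, at 10388.5 and 9048.5 UMIs. The libraries shared 266 barcode sequences, 2 of them among Retnlg-high cells of both.

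A minority of the Retnlg-high barcodes also carried RNA of other cell types, and this differed between the libraries. The rule had already left out barcodes with any UMI of Cdh5, Cd79a, Cd3e or C1qa. The endothelial, B, T and macrophage values below were therefore limited by the rule itself. At least 10 UMIs of a marker list of another cell type were found in 95 cells (11.4%) of the IgG library and 48 cells (7.23%) of the S100A4-11 library. These barcodes held 18.9% and 12% of the group's UMIs, at a median of 9216 and 8578 UMIs each. The summed epithelial markers were at 1678 and 1109 CPM, with 75.6% and 82.1% of them in 5 cells, and none of the 10 epithelial markers was at 0. Monocyte or macrophage markers were at 423 and 304 CPM (1 and 3 of 15 at 0), dendritic cell markers at 532 and 89.7 CPM (2 and 1 of 9 at 0), and fibroblast or pericyte markers at 607 and 440 CPM (none of 10 at 0). T or NK cell markers went the other way, at 78.2 and 147 CPM (1 of 9 at 0 in each). Endothelial markers were at 134 and 76.9 CPM (1 of 9 at 0 in each), B cell markers at 18.7 and 9.88 CPM (1 and 2 of 8 at 0), erythroid or platelet markers at 529 and 297 CPM (none of 8 at 0), and basophil, mast cell or eosinophil markers at 16.6 and 14.4 CPM (5 and 2 of 8 at 0). Counts between libraries were therefore also made without these barcodes, an alternative chosen after seeing the data, and are given both ways where they differ.

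The share of Retnlg-high cells was close in both libraries. They made up 35.1% (33.2 to 37.0) of the IgG library's mature neutrophils and 33.6% (31.5 to 35.7) of those of the S100A4-11 library, a ratio of 0.957 (0.863 to 1.06). Of all kept barcodes they were 5.83% (5.45 to 6.23) and 5.37% (4.98 to 5.78), a ratio of 0.921 (0.830 to 1.02). Both intervals of the ratio include 1, so these libraries were not apart beyond counting error. After thinning every cell to 1000 UMIs the shares of the mature neutrophils were 35.4% and 34.7%, with 12 and 5 shallower cells left out.

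Against the other mature neutrophils, the Retnlg-high cells carried more RNA of late granule genes and of Cd177, Ly6g and S100a6, and less of NF-kB-linked, cytokine and immediate early genes. Since the rule split the same cells by 6 of their genes, this is a description of the split, and those 6 genes are left out of the counts. Of 3464 genes compared, 44 (1.27%) were at least 2-fold higher in the Retnlg-high cells of both libraries and 73 (2.11%) at least 2-fold lower in both. Without the barcodes with other cell types' markers, 53 were higher and 100 lower of 3170. Of the 3464 genes, 64.5% and 63.5% had a ratio below 1, and 35.5% and 36.5% had one above it.

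Among secreted and granule products, 5 of the 19 genes compared were at least 2-fold higher in both libraries (Mmp25, Lcn2, Wfdc21, Ifitm6 and Padi4; Mmp25 was named only for this count) and none was 2-fold lower. Without the barcodes with other markers 6 of 19 were higher. The list's median log2 ratio was 0.73 and 0.75 in the IgG and S100A4-11 libraries, beside -0.12 and -0.14 over all genes compared. Lcn2, an iron-scavenging granule protein, was at 3329 CPM in the Retnlg-high cells of the IgG library and 3011 CPM in those of the S100A4-11 library, against 1139 and 1236 CPM in the other mature neutrophils, ratios of 2.92 and 2.44. Padi4, the enzyme that citrullinates histones when neutrophils release chromatin, was at 129 and 137 CPM against 31.4 and 44.0 CPM. Wfdc21, a secreted protein of the whey acidic protein family, had ratios of 2.31 and 2.53. Ngp, a granule gene capped by the rule itself, was still at 107 and 96.2 CPM against 16.2 and 12.3 CPM.

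Chemokine receptor and adhesion genes showed no common direction. Of 20 compared, 1 was at least 2-fold higher in both libraries (Cd177) and 2 were lower (Cxcr4 and Icam1), 11 were above 1 and 9 below it in each library, and the median log2 ratio was 0.01 and 0.04. Cd177, a partner of beta-2 integrins on neutrophils, was at 299 and 238 CPM in the Retnlg-high cells against 37.9 and 35.7 CPM in the others, ratios of 7.90 and 6.67. Outside this list, Ly6g, the antigen by which mouse neutrophils are usually stained, was at 288 and 331 CPM against 52.7 and 40.3 CPM, ratios of 5.47 and 8.22. Ifitm6, of the interferon-induced transmembrane family, had ratios of 6.84 and 6.24. Cxcr2, the chemokine receptor that draws neutrophils from marrow, was at 672 and 637 CPM against 615 and 596 CPM. It parted the groups of cells by less than 1.1-fold in both libraries. Cxcr4, the receptor that retains or returns neutrophils to marrow, was lower in the Retnlg-high cells, at 82.6 and 99.6 CPM against 214 and 232 CPM (Cxcr2 and Cxcr4 were chosen after their values were seen).

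Of the S100 genes, 2 of 7 were at least 2-fold higher in both libraries. S100a6, a calcium-binding protein that the rule did not use, was at 6784 and 7332 CPM against 2407 and 2398 CPM, ratios of 2.82 and 3.06. The other was S100a8, which the rule did use. S100a11 was at 6980 and 6589 CPM against 4626 and 4200 CPM, ratios of 1.51 and 1.57. The remaining genes farthest above the other mature neutrophils were Adpgk, a glucose-phosphorylating enzyme (7.58 and 6.92), Zdhhc3, a palmitoyltransferase (3.16 and 3.51), Actn1, which crosslinks actin (2.66 and 2.93), Mgst1, a membrane-bound glutathione transferase (2.42 and 2.56), and Stfa3, a cysteine protease inhibitor (4.51 and 3.10). Stfa3 has close copies, so reads may be split among them and its value is uncertain.

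NF-kB-linked genes lay lower. Of 23 compared, 9 were at least 2-fold lower in the Retnlg-high cells of both libraries and none was 2-fold higher, with a median log2 ratio of -0.94 and -0.92 in the IgG and S100A4-11 libraries. Nfkbia, the inhibitor that NF-kB itself induces, was at 2301 and 2278 CPM against 5815 and 6263 CPM, ratios of 0.396 and 0.364. Tnfaip3, an enzyme that ends NF-kB signalling, was at 305 and 352 CPM against 1020 and 1177 CPM, ratios of 0.299 and 0.299. Gadd45b, a stress-response gene, was at 229 and 305 CPM against 1361 and 1752 CPM. Icam1, an adhesion molecule, was at 54.7 and 34.2 CPM against 248 and 312 CPM. Cd14, a receptor for bacterial lipopolysaccharide on the same list, was nearly level, with ratios of 0.900 and 0.917.

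Promoters of 19 of these 23 genes matched the RefSeq table (build GRCm38.p6, the 250 bases before each start searched). The core of an NF-kB-like motif, GGG then any 2 bases then TTTCC, was searched on both strands (the other strand reads GGAAA, any 2 bases, CCC) and occurred in 4 of the 19, beside 2.23% of 2783 genes compared and 1.41% of 32851 promoter windows. Stretches of 2 are shown because their genes were at least 2-fold lower in the Retnlg-high cells, with the match in capitals. A match is a description of letters, not of a bound site.
Tnfaip3, chr10:19015411-19015470, minus strand: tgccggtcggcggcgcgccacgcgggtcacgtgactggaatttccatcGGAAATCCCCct
Nfkbia, chr12:55492648-55492707, minus strand: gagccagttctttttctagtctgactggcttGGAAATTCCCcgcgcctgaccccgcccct

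Cytokine and chemokine genes followed the same direction, with exceptions. Of 15 compared, 4 were at least 2-fold lower in both libraries (Cxcl1, Il1a, Il1rn and Csf1) and 1, Spp1, was higher. Il1rn, the antagonist of interleukin-1, was at 803 and 847 CPM against 2075 and 2374 CPM. Il1b was at ratios of 0.582 and 0.590 and Cxcl2, a neutrophil-attracting chemokine, at 0.640 and 0.634, short of 2-fold. Spp1, the secreted protein osteopontin, was at 820 and 1070 CPM in the Retnlg-high cells against 355 and 418 CPM in the others. An Spp1 UMI was present in 37.7% and 39.5% of the Retnlg-high cells, beside 1.75% and 1.36% of the B cells. Cxcl3, a close relative of Cxcl2, stood slightly higher, with ratios of 1.12 and 1.24.

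Immediate early and stress genes had a ratio below 1 for 27 of 27 compared genes in both libraries, beside the 64.5% and 63.5% of all genes, and 5 were at least 2-fold lower in both (Atf3, Dusp2, Nr4a1, Nr4a3 and Zfp36; all but Dusp2 named only for this count). Without the barcodes with other markers 26 and 25 of 26 were below 1. These genes also respond to tissue dissociation, whose part was not tested. Dusp1, a phosphatase of stress kinases, was at 4127 and 4694 CPM against 7600 and 8197 CPM. Guanylate-binding protein and MHC class I genes were below 1 for 14 of 14 in both libraries, beside the same 64.5% and 63.5%, with H2-Q4 and H2-Q7 past 2-fold (named for this count; they are near copies and uncertain). B2m, the light chain of MHC class I, had ratios of 0.598 and 0.614. Type I interferon genes showed no member past 2-fold among 22.

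Of 24 glycolysis and hypoxia genes, 16 and 18 had a ratio above 1, beside 35.5% and 36.5% of all genes. Among them Pgk1, a kinase of glycolysis, was at least 2-fold higher in both, with ratios of 2.01 and 2.15 (named for this count). Gapdh, another glycolytic enzyme, was at 643 and 689 CPM against 338 and 321 CPM. Oxidase genes differed less: none of 7 passed 2-fold, and Rac2, a regulatory GTPase of the oxidase, had ratios of 1.40 and 1.41. Survival genes were lower for 3 of 13 (Bcl2a1b, Pmaip1 and Birc3), while Mcl1, which protects neutrophils from apoptosis, had ratios of 0.797 and 0.843.

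**Figure D2:**
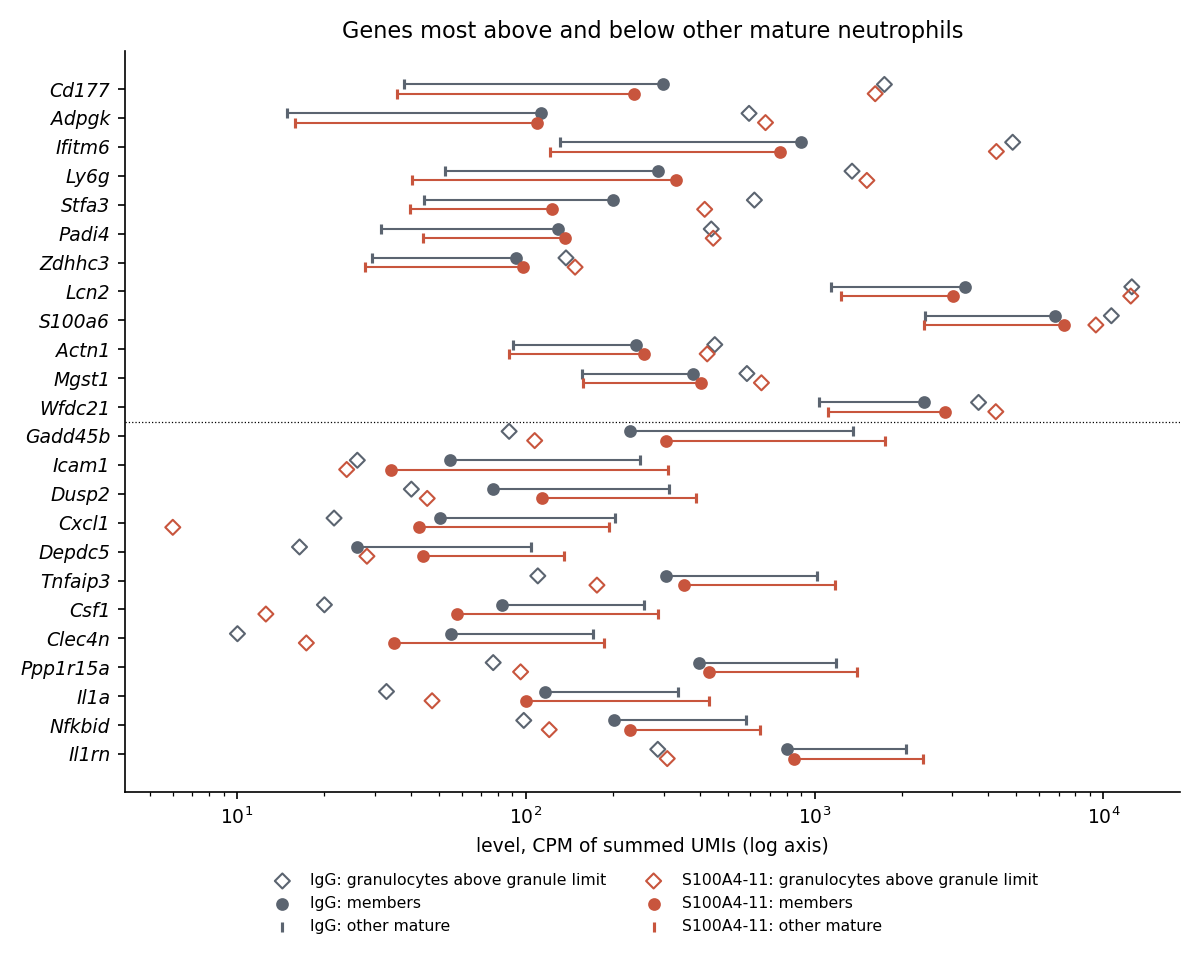
Levels in CPM (log axis) of the 12 genes farthest above and the 12 farthest below the other mature neutrophils, for the Retnlg-high cells (filled circles), the other mature neutrophils (ticks) and granulocytes with Camp, Ngp and Ltf above the limit (open diamonds), in the IgG (grey) and S100A4-11 (red) library. For Cd177 the diamonds lie at 1745 and 1621 CPM, the circles at 299 and 238 CPM and the ticks at 37.9 and 35.7 CPM.

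For most of these genes the Retnlg-high cells stood between the other mature neutrophils and the granulocytes with Camp, Ngp and Ltf above the limit. Of the 44 genes higher in the Retnlg-high cells, 39 (88.6%) were higher still in those granulocytes in both libraries, beside 24.1% of all 3464 genes compared. The 44 include genes that the rule used: S100a8, and Ngp, whose place in this order follows from the limit itself. Of the 73 lower genes, 67 (91.8%) were lower still, beside 59.8% of all genes. Lcn2 was at 12538 and 12434 CPM in the granulocytes above the limit, and Il1b was at 5613 and 6940 CPM. Spp1 was an exception in one direction, at 758 and 845 CPM, below the Retnlg-high cells.

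The Retnlg-high cells followed the same order from the first to the last of 4 bins, though not at every step. They were divided by the share of Ccrl2, Ptgs2 and Marcksl1 among the UMIs of the 6 dividing genes, from none (74 and 58 cells) through up to 10% (246 and 172 cells) and 10 to 25% (205 and 186 cells) to 25 to 50% (308 and 248 cells). Summed NF-kB-linked genes were at 15865 CPM in the first of these bins and 25079 CPM in the last in the IgG library, and at 15275 and 24164 CPM in the S100A4-11 library. In the other mature neutrophils with over 90% they were at 35741 and 37301 CPM. Tnfaip3 was at 68.9 CPM in the first bin and 486 CPM in the last in the IgG library, and at 108 and 522 CPM in the S100A4-11 library. Granule and secreted genes went from 45029 to 33625 CPM and from 40773 to 31689 CPM, and reached 18006 and 17287 CPM in the cells with over 90%. The first 2 bins did not always keep the order. The granule and secreted genes were at 45122.5 CPM in the second IgG bin. Immediate early and stress genes went down from the first to the second bin, from 18750 to 17905 CPM and from 22861 to 19348.5 CPM. Because the bins use genes of the rule, these are descriptions too. Chemokine receptor and adhesion genes were flat as a sum, between 11631 and 12234 CPM in the 4 IgG bins of Retnlg-high cells. Single members moved in opposite directions from the first to the last of these bins: Cd177 went from 442 to 111 CPM and Icam1 from 13.2 to 95.6 CPM.

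**Figure D3:**
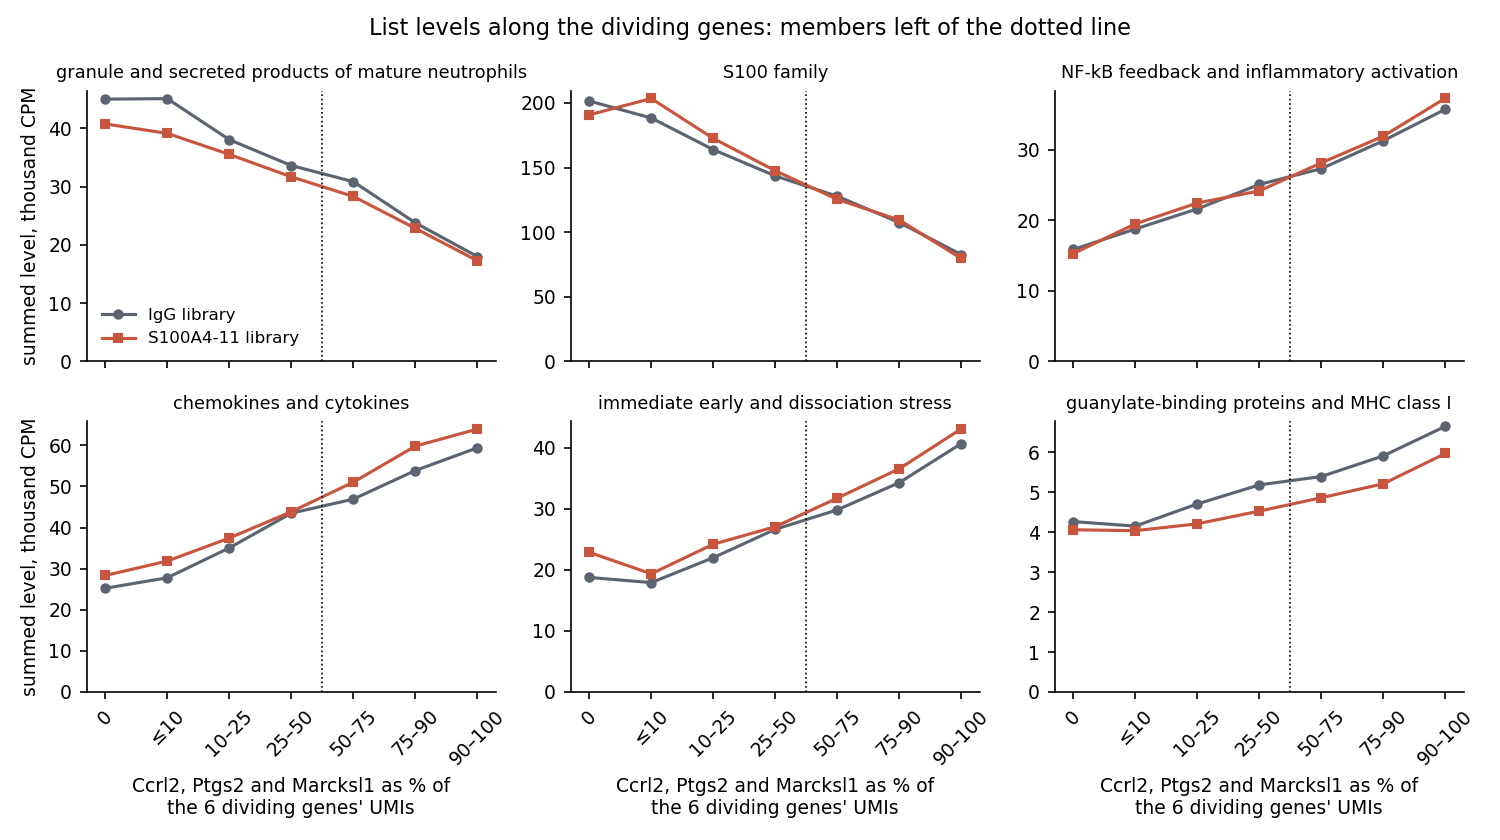
Summed level (axis in units of 1000 CPM) of 6 gene lists (panels) against the share of Ccrl2, Ptgs2 and Marcksl1 among the 6 dividing genes, in the IgG (grey circles) and S100A4-11 (red squares) library; bins left of the dotted line hold the Retnlg-high cells. The NF-kB list goes from 15865 to 35741 CPM across the 7 IgG bins, with no step at the line.

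Between the libraries, most genes of the Retnlg-high cells lay close together, and a small set led by Saa3, Zbp1, Cxcl3 and Plin2 was lower in the S100A4-11 library. Of 3480 genes compared, 20 (0.575%) were at least 1.5-fold higher in the S100A4-11 library and 146 (4.2%) at least 1.5-fold lower. Higher genes were 12% of these calls, and 30.5% with TMM scaling (trimmed mean of M values, which resets the library totals). Without the barcodes with other cell types' markers, 31 were higher (0.986%) and 48 lower (1.53%) of 3143, with 13 and 38 of them shared with the counts over all cells. In the other mature neutrophils 13 of 3822 genes (0.34%) were higher and 95 (2.49%) lower. The genes that led the set were lower there too, so a lower level was not particular to the Retnlg-high cells. Saa3 differed less there, however. Without the barcodes with other markers its ratio was 0.132 (0.0983 to 0.173) in the Retnlg-high cells and 0.721 (0.663 to 0.783) in the others. In the other mature neutrophils Saa3 was at 264 and 190 CPM, Zbp1 at 54.6 and 32.3, Cxcl3 at 789 and 405, and Plin2 at 474 and 318.

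Type I interferon response genes were lower as a list. Of the 39 listed genes found, 22 passed the minimum level, and in the other lists too a count covers the genes that passed it. Of these 22, 21 had a ratio below 1, beside 57% of all genes, and 5 were at least 1.5-fold lower (Ifit1, Zbp1, Ifih1, Parp14 and Slfn5), with a median log2 ratio of -0.28 beside -0.03 over all genes. Without the barcodes with other cell types' markers 22 of 22 were below 1, beside 48% of all genes, with a median of -0.31 and again 5 past 1.5-fold. In the other mature neutrophils 26 of 26 were below 1, with a median of -0.24 and 4 past 1.5-fold. A lower level of this list in the neutrophils of these same libraries was already known when the cells were chosen, so it is no independent support.

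Zbp1, a sensor of Z-form nucleic acid, was at 71.3 and 36.6 CPM, a ratio of 0.514 (0.419 to 0.627). A Zbp1 UMI was found in 22.9% of the Retnlg-high cells of the IgG library and 15.4% of those of the S100A4-11 library, beside 6.51% and 5.66% of the B cells. In endothelial cells, taken by their Cdh5 UMIs, Zbp1 was lower in the S100A4-11 library as well, at 21.6 and 14.2 CPM. Parp14, an ADP-ribosyltransferase, was at 51.8 and 26.7 CPM, a ratio of 0.516 (0.406 to 0.651), and Ifih1, a sensor of double-stranded RNA, at 36.2 and 19.0 CPM, a ratio of 0.524 (0.393 to 0.692). These are low levels, and 20.7% and 19.7% of the Ifih1 UMIs came from 5 cells. Ifit1, which binds foreign RNA ends, was at 40.1 and 24.0 CPM, a ratio of 0.600 (0.463 to 0.772), but 62.2% of its UMIs in the S100A4-11 library came from 5 cells. Slfn5, outside the naming rule, was at 43.3 and 27.2 CPM.

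The abundant members differed less. Isg15, a ubiquitin-like protein, was at 1442 and 1271 CPM, a ratio of 0.882 (0.850 to 0.914). Rtp4, an interferon-induced receptor transporter, was at 298 and 236 CPM, a ratio of 0.791 (0.727 to 0.859). Irf9, a transcription factor of the interferon response, was at 90.9 and 64.9 CPM, a ratio of 0.714 (0.609 to 0.835). None of the 11 receptor and signalling genes compared passed 1.5-fold over all cells, while without the barcodes with other markers 1 did, Irf9 at 0.636 (0.536 to 0.754).

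Guanylate-binding proteins, interferon-induced GTPases that attack pathogen vacuoles, and MHC class I genes were below 1 for 12 of 13, with a median log2 ratio of -0.22 (-0.28 without the barcodes with other markers). Past 1.5-fold were 2 of them, Gbp2 and Gbp7, and 3 without those barcodes, where Gbp2b joined them. Gbp2 was at 293 and 191 CPM, a ratio of 0.653 (0.597 to 0.715), with a UMI in 59.8% and 49.2% of the cells, beside 6.38% and 4.90% of the B cells. Endothelial cells also held less Gbp2 in the S100A4-11 library, at 123 and 92.8 CPM. Gbp7 was at 55.5 and 32.6 CPM, a ratio of 0.588 (0.472 to 0.729). Gbp2b, a near relative of Gbp2, was at 35.2 and 23.5 CPM, a ratio of 0.667 (0.511 to 0.865), just short of the fold, and at 0.652 without those barcodes. The genes of this family resemble each other, so reads may be split among them. H2-K1, an MHC class I heavy chain, was at 961 and 989 CPM, a ratio of 1.03 (0.986 to 1.07), and H2-D1, another, at 1845 and 1770 CPM, a ratio of 0.959 (0.929 to 0.990).

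The promoters of these lists were searched for the core of an interferon-stimulated response element, GAAA then any 2 bases then GAAA, on both strands (the other strand reads TTTC, any 2 bases, TTTC). It occurred in 7 of the 15 type I interferon genes and 5 of the 12 guanylate-binding and MHC class I genes that matched the table, beside 3.95% of 2783 genes compared and 2.98% of 32851 promoter windows. The stretches below belong to genes at least 1.5-fold lower in the S100A4-11 library and to Gbp2b, with the match in capitals. They do not cover all the lower genes: no match was found for Zbp1, Parp14 or Ifih1. Zbp1 had no promoter window to search. Where a promoter had several matches, 1 is shown.
Gbp2, chr3:142620579-142620638, plus strand: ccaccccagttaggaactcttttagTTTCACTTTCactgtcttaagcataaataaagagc
Gbp7, chr3:142530258-142530317, plus strand: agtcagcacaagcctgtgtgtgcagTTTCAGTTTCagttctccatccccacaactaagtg
Gbp2b, chr3:142594685-142594744, plus strand: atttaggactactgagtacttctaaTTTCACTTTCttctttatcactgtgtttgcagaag
Ifit1, chr19:34640760-34640819, plus strand: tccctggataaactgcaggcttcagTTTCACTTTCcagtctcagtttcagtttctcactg
Slfn5, chr11:82951922-82951981, plus strand: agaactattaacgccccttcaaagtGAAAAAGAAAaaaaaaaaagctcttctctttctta

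**Figure D4:**
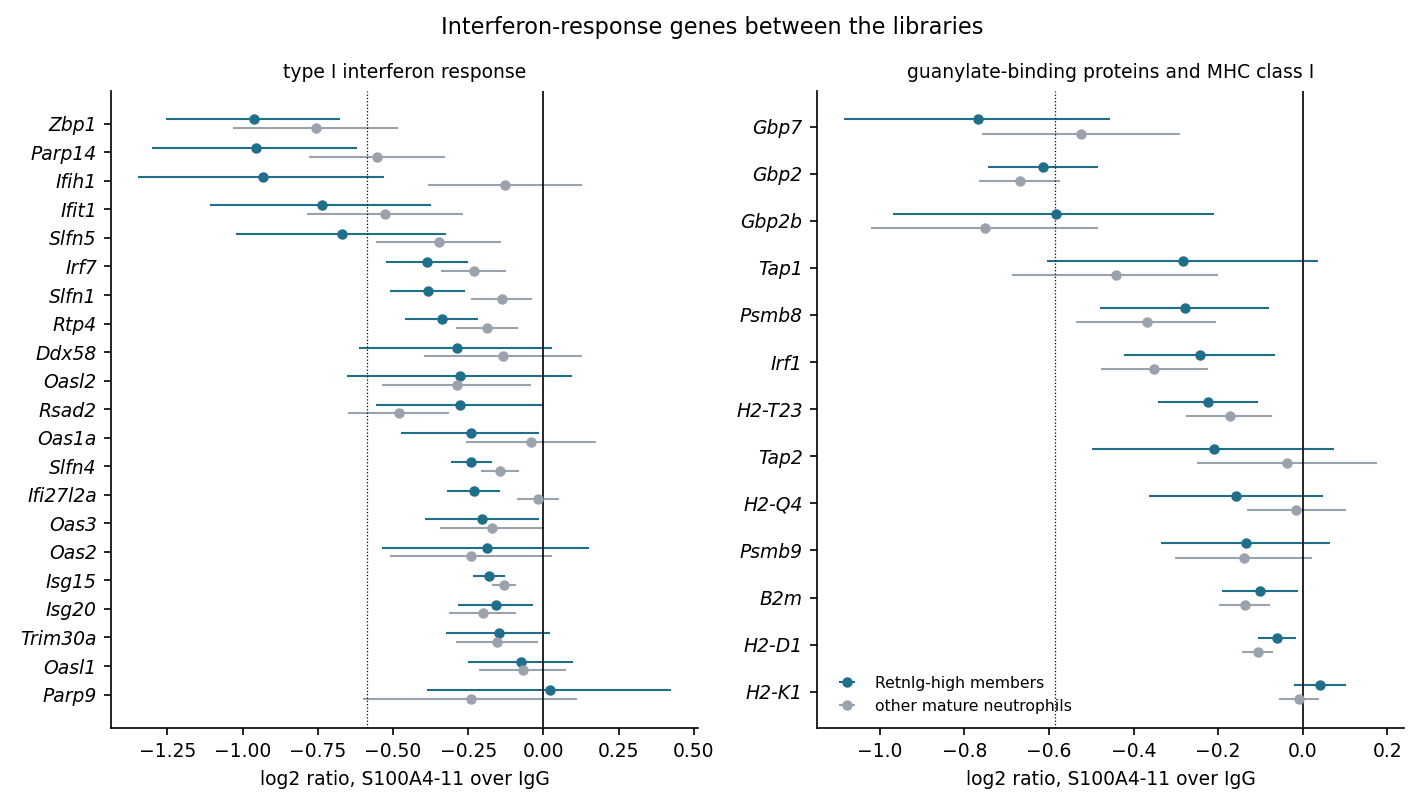
Log2 ratio of the S100A4-11 over the IgG library for 21 of the 22 type I interferon genes (left) and the 13 guanylate-binding protein and MHC class I genes (right) compared, in Retnlg-high cells (blue) and other mature neutrophils (grey); bars are exact 95% intervals of counting error and the dotted line marks 1.5-fold lower. Of the 21 genes on the left, 20 blue points lie below 0, and of the 13 on the right, 12 do.

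Among 15 cytokine and chemokine genes 1 was past 1.5-fold over all cells, Cxcl3, at 882 and 504 CPM, a ratio of 0.571 (0.541 to 0.602), and at 0.547 without the barcodes with other markers. A Cxcl3 UMI was found in 34.5% and 22.0% of the Retnlg-high cells, beside 0.125% and 0.226% of the B cells. Tnf, the cytokine tumour necrosis factor, was at 105 and 70.8 CPM, a ratio of 0.677 (0.582 to 0.786), and without those barcodes it was past 1.5-fold too, at 0.662 (0.562 to 0.778). Il1b lay the other way, with a ratio of 1.18 (1.17 to 1.20), and Cxcl2 was at 15242 and 15557 CPM, a ratio of 1.02 (1.01 to 1.03). The list's median log2 ratio was 0.01. NF-kB-linked genes had a median of 0.07, with Tnfaip2, an NF-kB target, at 281 and 387 CPM, a ratio of 1.38 (1.28 to 1.48), and Nfkbia at 0.990 (0.963 to 1.02).

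Saa3, an acute phase protein, was the gene with the lowest ratio among those named by size, at 128 and 25.4 CPM, a ratio of 0.198 (0.158 to 0.246). It was present in 6.36% and 2.56% of the Retnlg-high cells, and 39.2% and 65.3% of its UMIs came from 5 cells. Plin2, which coats lipid droplets, was spread over more cells, with a UMI in 73.8% and 59.2%, beside 7.01% and 5.73% of the B cells. It was at 595 and 382 CPM, a ratio of 0.643 (0.603 to 0.685), and at 0.633 without the barcodes with other markers. In endothelial cells Plin2 was at 119 and 98.4 CPM. Of the 11 lipid genes 3 were past 1.5-fold lower (Plin2, Fabp5 and Lpl). Fabp5, a fatty acid carrier, was at 1.10 without those barcodes, and 73.6% and 94.5% of the Lpl UMIs came from 5 cells, while 5.89% and 6.64% of the Plin2 UMIs did. Without those barcodes 1 of 7 lipid genes compared was past 1.5-fold, Plin2.

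Other genes named by size as lower included Stfa3 (0.618, 0.553 to 0.690), Mif, a cytokine that attracts leukocytes (0.624, 0.538 to 0.724), and Lipg, a lipase (0.603, 0.505 to 0.719). In the other mature neutrophils, without the barcodes with other markers, Mif was at 0.847 (0.740 to 0.970). Stfa3 was at 0.952 (0.784 to 1.16) there and Lipg at 1.23 (0.907 to 1.66), intervals that include 1. Tagln2, an actin-binding protein, was at 242 and 146 CPM, a ratio of 0.603 (0.545 to 0.668). Bcl2l1, a survival protein, was at 163 and 115 CPM, a ratio of 0.707 (0.628 to 0.794), and Nos2, the inducible nitric oxide synthase, at 43.1 and 29.1 CPM, a ratio of 0.675 (0.532 to 0.852). Without the barcodes with other markers Nos2 was past 1.5-fold, at 0.614 (0.478 to 0.785). Several lower genes moved with the barcodes that carried other cell types' markers. Lyz2, the lysozyme of myeloid cells, was at 1651 and 1172 CPM, a ratio of 0.710 (0.685 to 0.736), and at 0.995 without those barcodes. C3, a complement protein, went from 0.638 to 0.810, Hmox1, which breaks down haem, from 0.660 to 0.808, and Gsn, which severs actin filaments, from 0.702 to 1.18. Gsn is itself on the fibroblast or pericyte marker list, so leaving out those barcodes takes out cells high in Gsn by design. Chil3, the granule gene past 1.5-fold, was at 49.9 and 20.3 CPM with 55.2% and 90.8% of its UMIs in 5 cells, and 7 and 4 UMIs were left without those barcodes.

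Higher genes were fewer. Rbm38, an RNA-binding protein, was at 57.2 and 93.8 CPM, a ratio of 1.64 (1.40 to 1.92), and Hist2h2ac, a histone H2A gene, at 41.2 and 67.3 CPM, a ratio of 1.63 (1.36 to 1.97). Slc7a11, the cystine transporter, had a ratio of 1.32 (1.24 to 1.40), Pgd, of the pentose phosphate pathway, 1.34 (1.24 to 1.45), Hcar2, a receptor for hydroxybutyrate, 1.33 (1.26 to 1.41), and Spp1 1.30 (1.25 to 1.36). Ly96, a partner of the lipopolysaccharide receptor, was at 18.7 and 33.1 CPM, a ratio of 1.77 (1.35 to 2.34). Acta2, a smooth muscle actin, had a ratio of 1.76 (1.5 to 2.06), with 26.9% and 42.1% of its UMIs in 5 cells, and 1.28 without the barcodes with other markers. Like Gsn, Acta2 is on the marker list by which those barcodes were found, so that shift is no separate check. Gm42418, at 15713 and 19908 CPM, overlaps a gene on the opposite strand and its reads cannot be told apart from it here.

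**Figure D5:**
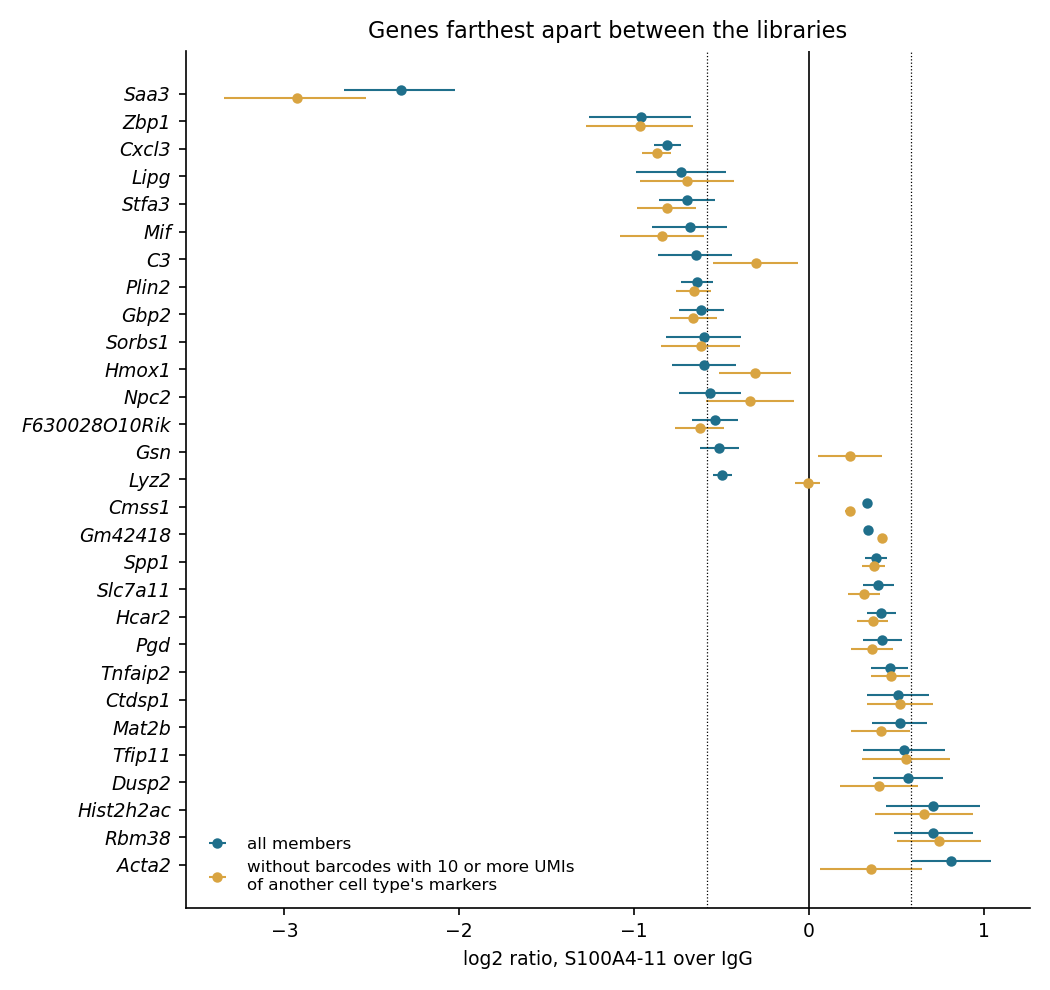
Log2 ratio of the S100A4-11 over the IgG library for 14 of the 15 genes named as highest and the 15 named as lowest, over all Retnlg-high cells (blue) and without barcodes holding 10 or more UMIs of another cell type's markers (yellow); bars are exact 95% intervals of counting error and dotted lines mark 1.5-fold either way. Lyz2 and Gsn move to or past 0 without those barcodes, at ratios of 0.995 and 1.18, while Zbp1 and Cxcl3 stay at 0.513 and 0.547. Gsn and Acta2 are themselves on a marker list that chose those barcodes.

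S100a4 itself, whose name the antibody carries, was near background in these cells. It had a UMI in 3.0% and 3.92% of the Retnlg-high cells, beside 3.25% and 2.11% of the B cells, and 61.7% and 52.8% of its UMIs came from 5 cells. Its level was 23.1 and 33.4 CPM; without the barcodes with other markers 5 and 25 UMIs remained, a ratio of 6.39 (2.40 to 21.4). Genes for proposed partners of S100 proteins included Anxa2, which binds S100A10 and S100A4, at 1323 and 1415 CPM, a ratio of 1.07 (1.03 to 1.11). Ager, the receptor for advanced glycation end products and an epithelial marker in lung, was at 54.9 and 9.88 CPM with 89.8% and 78.4% of its UMIs in 5 cells. Without the barcodes with other markers 21 and 12 Ager UMIs were left, a ratio of 0.731 (0.328 to 1.55), an interval that includes 1. The part of epithelial RNA in its level was not tested.

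The other lists between the libraries had few or no genes past 1.5-fold. None of 24 glycolysis and hypoxia genes, 7 oxidase genes, 9 colony-stimulating factor genes and 13 survival genes was past it, with or without the barcodes with other markers. None of the 7 listed histone genes, which do not include Hist2h2ac, was past it over all cells, and 1 was without those barcodes (Hist1h1c, at 1.53). Of 20 chemokine receptor and adhesion genes 1 was lower (Icam1, at 0.625), and none without those barcodes, where Icam1 was at 0.694. Of 27 immediate early genes 2 were lower, Jun at 0.599 and Hspb1, a small heat shock protein at 35.4 and 9.35 CPM, at 0.264. Without those barcodes none of 26 was, with Jun at 0.727, and Hspb1 was left with 36 and 9 UMIs, under the minimum. Csf3r, the receptor for granulocyte colony-stimulating factor, was at 1305 and 1366 CPM, and Mcl1 at 2736 and 2930 CPM. Zbtb16, a transcription factor also found in lymphoid cells, was at 35.4 and 6.68 CPM, with 47.3% and 40.0% of its UMIs in 5 cells. Without those barcodes 50 and 12 Zbtb16 UMIs were left, under the minimum, a ratio of 0.307 (0.149 to 0.584). In the other mature neutrophils its ratio without them was 0.369 (0.253 to 0.527).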

How the data were processed

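The authors deposited 2 matrices of whole UMI counts, 1 per library, made with Cell Ranger 7.1.0 and build mm10, per the submitters' processing notes. Every column belonged to a named sample (0 columns of no sample). Barcodes with at least 200 genes and at most 15% mitochondrial UMIs were kept (14285 and 12365 of 14411 and 12506). The cells and gene lists were chosen with earlier results of these data known. Counts were summed over the cells of a group in each library and divided by their total (CPM). With 1 library per group no test was run: shares have exact Clopper-Pearson intervals, levels exact Poisson intervals and ratios exact conditional binomial intervals (scipy 1.17.1). Genes with a mean of at least 20 CPM and at least 100 UMIs were compared; a gene was counted past a ratio of 1.5 between libraries, or of 2 in both libraries between groups of cells. The scripts were tested on simulated data.

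Genes named are the 15 highest and 15 lowest between libraries by the interval bound nearest 1, among genes with a mean of at least 50 CPM and at least 20% of their level in the remaining cells; the 12 highest and 12 lowest against other mature neutrophils; up to 4 of each list by level and 4 by ratio; S100a4; and the genes of the rule. Exceptions are marked, and some genes that the rule names are not reported here. Doublets were called with Scrublet in scanpy 1.11.5 (627 and 615 barcodes; 36 and 28 of the Retnlg-high cells) and kept, with removal as an alternative. Other alternatives were the limits of each step, the scaling (TMM in edgeR 4.0.16 and median of ratios) and the minimum level. B cells were barcodes with at least 2 Cd79a UMIs. Promoter sequences are RefSeq's, GRCm38.p6.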

Additional observations from a re-analysis of the deposited data

Results flagged for a closer look

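For these genes the ratio of the S100A4-11 over the IgG library lay on one side of 1 in the Retnlg-high cells and on the other in the other mature neutrophils, each with an interval of counting error that leaves out 1. The difference between the groups of cells was not tested, as each library stands alone. Lower in Retnlg-high cells and higher in the others were Icam1 (0.625 against 1.26), Csf1 (0.702 against 1.12), Gsn (0.702 against 1.19), Il1a (0.857 against 1.28) and Lcn2 (0.904 against 1.08). Higher in Retnlg-high cells and lower in the others were Acta2 (1.76 against 0.779), S100a4 (1.44 against 0.553), Ly6g (1.15 against 0.764), Plaur (1.07 against 0.908) and Actg1 (1.02 against 0.974). Without the barcodes with other cell types' markers 3 of these 10 no longer lay on opposite sides in this way: Gsn was at 1.18 (1.04 to 1.34) against 0.956 (0.845 to 1.08), Acta2 at 1.28 (1.04 to 1.56) against 1.18 (0.979 to 1.42), and Actg1 at 0.989 (0.979 to 0.999) against 0.951 (0.942 to 0.960). Gsn and Acta2 are on a marker list that chose the barcodes left out, so for them this is no separate check.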

How the results depend on the processing

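No paired analysis was possible because each group has 1 library. The ratio of shares stayed below 1 and within its counting interval under every alternative run for it, from 0.949 to 0.979 of mature neutrophils and from 0.913 to 0.964 of kept barcodes. Of the counts between libraries, lower genes were 89 with S100a8 and S100a9 at least 5%, 42 with a mean of at least 50 CPM, 365 with no minimum CPM, and 48 without the barcodes with other markers, against 146. Higher genes were 46 with TMM scaling, 5 at 50 CPM, 51 with no minimum and 31 without those barcodes, against 20. Genes lower than in other mature neutrophils were 46 at 50 CPM and 110 with no minimum, against 73. Fabp5 reversed to a log2 ratio of 0.13 with S100a8 and S100a9 at least 5% and 0.13 without the barcodes with other markers, and Lpl to 0.70 with the former. The minimum changes how many genes were compared; the cause of the others was not tested. The list medians ranged from -0.31 to -0.19 for type I interferon genes and from -0.28 to -0.13 for guanylate-binding and MHC class I genes over 14 settings. Depth limits low genes: near 50 CPM a gene such as Gbp7 had a UMI in a minority of the cells.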
